A study of Mus musculus with 6 samples.

Results

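The genes described here are 9 components of interferon signaling: the receptor chains Ifngr1, Ifngr2, Ifnar1, and Ifnar2, the kinases Jak1 and Jak2, and the transcription factors Stat2, Irf1, and Irf9. They were chosen by symbol, and each has 1 row among the 25215 genes in the expression values of the series. The values came from 602 single cells of 6 mouse tumors. B16 is a melanoma line of C57BL/6 mice (B16-F10 in the labels), and R499 is a line derived from a B16 tumor that relapsed after radiation with anti-CTLA4 and is resistant to checkpoint blockade. Mice of this strain were injected on the flanks with 50000 tumor cells, and every tumor was harvested on day 15. The 3 conditions were untreated B16 (tumors B16007 and B16008), B16 with anti-PD1 (B16PD1, 3 doses of 200 μg, given on days 5, 8, and 11, tumors B16PD1000 and B16PD1002), and untreated R499 (tumors R499015 and R499016), with 2 mice in each. CD45-negative cells were sorted to enrich tumor cells. Whether the flanks of 1 mouse were pooled is not given in the sources used here.

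Interferon gamma, made mostly by T cells and NK cells, binds a receptor of Ifngr1 and Ifngr2 chains, to which the kinases Jak1 and Jak2 are attached. Type I interferons bind Ifnar1 and Ifnar2, which carry Tyk2 and Jak1. The kinases phosphorylate STAT proteins. STAT pairs bind GAS motifs in target genes such as Irf1, while Stat2 and Irf9 belong to the complex ISGF3, which binds ISRE motifs in interferon-stimulated genes. Irf1 in turn activates antigen presentation genes, and loss of receptor chains or of Jak1 and Jak2 is a known way for tumors to escape checkpoint blockade.

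A gene was called detected in a cell if its TPM (the abundance of its transcripts, scaled to their length and to the same total in every cell) was above 0, and cells were retained with more than 1000 genes detected and less than 10% mitochondrial TPM. This left 507 cells, 75 to 91 per tumor, with a median of 3547 genes detected. Tumor medians ranged from 3141 (R499015) to 3838.5 (B16PD1002). TPM holds no read counts, so the depth in reads is unknown. The melanocyte markers Dct and Tyrp1 were detected in all 507 cells, while Ptprc, which encodes CD45, was detected in 1 cell. Of 19 immune markers, 5 were at 0 in all retained cells, and Fcer1g and Cd79a, with the highest means of log2(TPM + 1), were detected in 28 and 26 cells. The summed TPM of these markers per cell averaged 339 in B16007 and 291 in B16PD1002 and 10.4 to 32.0 in the other tumors. Of 11 stromal and keratinocyte markers 6 were at 0, and Dcn and Lum were detected in 6 and 7 cells.

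The genes lie on 6 chromosomes of GRCm38, the assembly of mm10. Ifnar2 (chr16:91372783-91405589), Ifnar1 (chr16:91485238-91507441), and Ifngr2 (chr16:91547072-91565623) are neighbors on the plus strand, with Il10rb, the shared chain of the interferon lambda and interleukin 10 receptors, between the first and the second. Ifngr1 (chr10:19591949-19610229) and Stat2 (chr10:128270559-128292849) lie far apart on chromosome 10. Irf1 is at chr11:53770014-53778374, Irf9 at chr14:55603571-55610030, Jak1 at chr4:101152367-101265282 on the minus strand, and Jak2 at chr19:29251828-29313080. In the GENCODE annotation, 4 of them overlap another gene: Ifnar2 overlaps Gm21970, Irf9 overlaps Rnf31, Irf1 overlaps Gm17334 on the other strand, and Jak1 overlaps 3 genes, among them Raver2 on the other strand. Reads from the overlaps cannot be told apart here by strand.

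All 9 genes had a promoter in the RefSeq table of GRCm38.p6, with 11 start sites in total. The 250 bases before each start were searched on both strands for the GAS motif, TTCNNNGAA, and for an ISRE core, TTTCNNTTTC, of which the reverse is GAAANNGAAA. A GAS match was held by 7.02% and an ISRE match by 2.98% of 32851 promoters of this length. The members with a match were Irf1 (1 of its start sites), Ifnar2, and Stat2, and no match overlapped another motif. Their upstream windows are printed because they hold the binding motifs of the pathway itself, with the matches in capitals, 5′ to 3′ on the plus strand.
Irf1 promoter, chr11:53769764-53770013: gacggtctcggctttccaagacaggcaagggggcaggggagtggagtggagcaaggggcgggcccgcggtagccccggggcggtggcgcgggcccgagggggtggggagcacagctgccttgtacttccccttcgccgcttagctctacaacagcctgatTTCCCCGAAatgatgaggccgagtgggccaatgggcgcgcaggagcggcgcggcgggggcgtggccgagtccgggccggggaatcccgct
Stat2 promoter, chr10:128270248-128270497: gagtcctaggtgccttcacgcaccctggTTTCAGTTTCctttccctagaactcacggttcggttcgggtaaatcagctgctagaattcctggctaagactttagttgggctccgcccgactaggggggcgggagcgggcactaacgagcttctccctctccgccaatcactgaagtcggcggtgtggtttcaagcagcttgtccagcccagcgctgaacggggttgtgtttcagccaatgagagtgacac
Ifnar2 promoter, chr16:91372533-91372782: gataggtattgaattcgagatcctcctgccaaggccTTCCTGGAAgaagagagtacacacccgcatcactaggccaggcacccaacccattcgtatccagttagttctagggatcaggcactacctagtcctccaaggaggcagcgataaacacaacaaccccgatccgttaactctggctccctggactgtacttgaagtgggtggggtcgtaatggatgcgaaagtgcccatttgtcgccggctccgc
The GAS match TTCCCCGAA of Irf1 begins at position -90, counting the base before the start as -1. The ISRE match TTTCAGTTTC of Stat2 begins at -222, and the GAS match TTCCTGGAA of Ifnar2 at -214. These are matches of letters and not shown to be bound.

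Among the receptor chains, Ifngr2, Ifnar2, and Ifnar1 were detected in 59.6%, 52.1%, and 47.5% of all retained cells and Ifngr1 in 33.5%. Ifngr2, the signaling chain of the interferon gamma receptor, was found in 302 cells, with a 95% Wilson interval of 55.2% to 63.8% that covers counting error only. By tumor its share was 64.8% and 59.3% in B16, 59.3% and 62.5% in B16PD1, compared with 55.6% and 54.7% in R499. The lowest and the highest tumor had overlapping intervals, and its level, the mean over cells of log2(TPM + 1), stayed within 2.84 to 3.49. Ifngr1, the ligand-binding chain, was found in 170 cells (interval 29.6% to 37.8%). Its share was 35.2% and 34.9% in B16, 39.5% and 35.2% in B16PD1, compared with 19.8% and 36.0% in R499. Only R499015, the tumor with the fewest genes detected, was below 30%, and the share in the other R499 tumor lay between those of the B16 and B16PD1 tumors.

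Ifnar1 and Ifnar2, the chains of the type I receptor, differed in how they varied. Ifnar1 was detected in 53 of 91 and 45 of 86 cells in B16, in 41 of 86 and 42 of 88 in B16PD1, and in 33 of 81 and 27 of 75 in R499. Shares were thus 58.2% and 52.3%, 47.7% and 47.7%, and 40.7% and 36.0%, and no condition overlapped another. Steps in this order were found for 2.25% of all genes tested, while 8.88% had no overlap between conditions whatever the order. Of the 9 genes only Ifnar1 had none. With the stricter filter on cells (more than 2000 genes detected, less than 5% mitochondrial TPM), the B16 and B16PD1 shares overlapped, at 62.2% and 53.8% against 51.6% and 56.9%, and those of R499 were 44.6% and 40.4%. The share also moved with the number of genes a cell had detected, from 31.4% in the third of cells with the fewest to 65.1% in the third with the most. The mean TPM of Ifnar1 did not follow this order, being 54.8 and 46.4 in B16, 45.9 and 50.4 in B16PD1, compared with 54.1 and 58.4 in R499. In R499 fewer cells had the transcript listed, while the highest mean TPM of the 6 tumors was also found there. Ifnar2 was detected in 52.7% and 58.1% of cells in B16, 54.7% and 53.4% in B16PD1, compared with 50.6% and 41.3% in R499. In cells with Ifnar2 detected its median was 77.7 TPM, above those of Ifngr1 (30.7), Ifngr2 (34.2), and Ifnar1 (35.4).

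**Figure D1:**
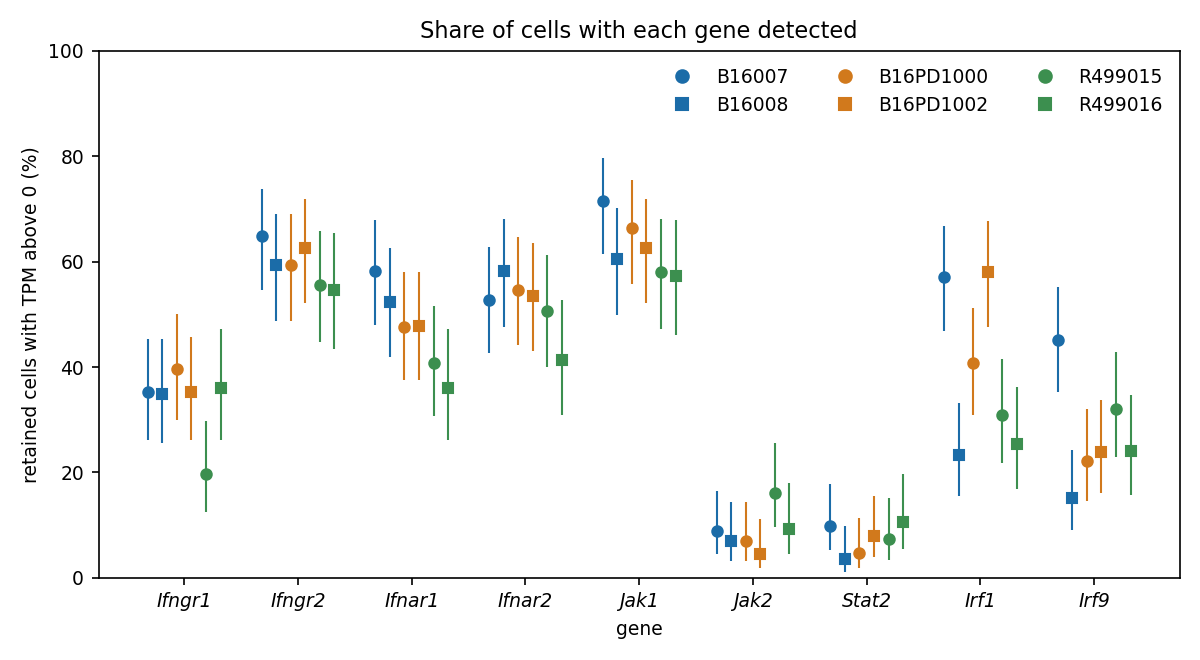
Percent of retained cells with TPM above 0 of each gene, by tumor (circles and squares for the 2 tumors of a condition), with 95% Wilson intervals as bars. Ifngr2 stays between 54.7% and 64.8%, Ifnar1 is highest in the B16 and lowest in the R499 tumors, Jak2 and Stat2 are the lowest in every tumor, and Irf1 ranges from 23.3% to 58.0%.

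Of the kinases, Jak1 was the most often detected of the 9 genes and Jak2 one of the least. Jak1, which serves both receptors, was found in 319 cells (62.9%, interval 58.6% to 67.0%), with 71.4% and 60.5% in B16, 66.3% and 62.5% in B16PD1, compared with 58.0% and 57.3% in R499. Jak2, which pairs with Ifngr2, was detected in 44 cells (8.68%, interval 6.53% to 11.5%), in 8 and 6 cells of the B16 tumors, 6 and 4 of B16PD1, and 13 and 7 of R499. Where detected, its median was 7.56 TPM, against 21.3 TPM for Jak1. The shares of Jak2 moved with how many genes a cell had detected. With the cells split by this number into 3 groups of 169, Jak2 was detected in 1.18% of the lowest group (at most 2942 genes), 6.51% of the middle group, and 18.3% of the highest group (at least 4237 genes). For Jak1 these shares were 32.5%, 67.5%, and 88.8%, so that a cell without a member listed cannot be read as a cell that lacks it.

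Of the transcription factors, Stat2 was rarely detected and Irf1 and Irf9 varied most between tumors. Stat2, a subunit of ISGF3, was detected in 37 cells (7.30%, interval 5.34% to 9.90%), in 9 and 3 cells of the B16 tumors, 4 and 7 of B16PD1, and 6 and 8 of R499. Irf9, the DNA-binding subunit of ISGF3, was detected in 138 cells (27.2%), in 41 of 91 and 13 of 86 cells in B16, 19 of 86 and 21 of 88 in B16PD1, and 26 of 81 and 18 of 75 in R499. B16007 (45.1%, interval 35.2% to 55.3%) and B16008 (15.1%, interval 9.05% to 24.2%) were the highest and the lowest of the 6 tumors, although both were untreated B16. Irf1, a primary target of interferon gamma signaling, was detected in 202 cells (39.8%), in 52 of 91 and 20 of 86 cells in B16, 35 of 86 and 51 of 88 in B16PD1, and 25 of 81 and 19 of 75 in R499. Its level was 3.47 and 1.39 in B16, 2.23 and 3.57 in B16PD1, compared with 1.75 and 1.39 in R499, a range of 2.18 on the log2 scale and the widest of the 9 genes. The next widest were those of Irf9 (1.60) and Ifnar2 (1.46), and that of Ifngr2 spanned 0.64.

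Both tumors with high Irf1, B16007 and B16PD1002, also had the highest summed immune markers. When the 11 cells with 2 or more immune markers detected were left out (3 of B16007, 2 of B16PD1000, 4 of B16PD1002, and 2 of R499016), Irf1 was as high, at 3.52 in B16007 and 3.66 in B16PD1002, and Irf9 in B16007 was 2.22 compared with 2.31 over all cells. Cells with fewer markers stayed in, and a part of immune cells in these levels was not tested.

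**Figure D2:**
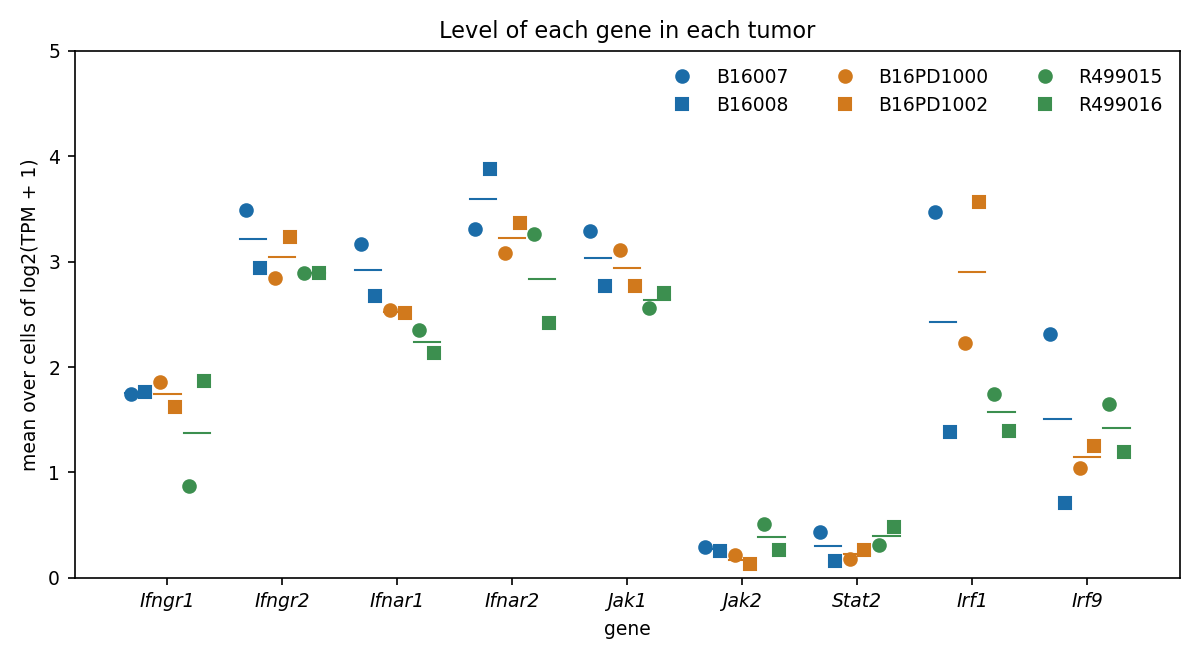
Level of each gene in each tumor as the mean over retained cells of log2(TPM + 1), with short lines at the mean of the 2 tumors of a condition. Irf1 and Irf9 are spread most within a condition, from 1.39 to 3.47 and from 0.71 to 2.31 in untreated B16.

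Ordered by the mean of their levels over the 6 tumors, the genes were Ifnar2 (3.22 ± 0.48, SD, n = 6), Ifngr2 (3.05 ± 0.26), Jak1 (2.87 ± 0.27), Ifnar1 (2.56 ± 0.35), Irf1 (2.30 ± 0.99), Ifngr1 (1.62 ± 0.38), Irf9 (1.36 ± 0.56), Stat2 (0.31 ± 0.13), and Jak2 (0.28 ± 0.13). TPM is scaled to transcript length, so levels can be compared between genes. Neighbors in this order were compared over the tumors by an exact permutation test of sign flips (two-sided, 8 pairs, Benjamini-Hochberg adjusted), and 0 of 8 passed 0.05. Jak1 was above Ifnar1 in 6 of 6 tumors by 0.31 ± 0.21 (SD, exact p = 0.0312, adjusted p = 0.125). This direction belonged to the log2 scale of single cells, since by mean TPM Ifnar1 was above Jak1 in 6 of 6 tumors, at 45.9 to 58.4 against 18.6 to 35.0. Irf9 was above Stat2 in 6 of 6 tumors by 1.05 ± 0.49, with the same p and adjusted p. The p of 0.0312 is the smallest that 6 tumors allow. After adjustment over 8 pairs, none can pass 0.05 unless most pairs reach this p. The count of 0 of 8 is therefore not read as likeness between neighbors. The other 6 neighbors had adjusted p from 0.417 to 0.656 in this exact test, and their differences were not detectable beyond the spread between tumors. By the log2 of each tumor's mean TPM the order was Ifnar2, Ifnar1, Ifngr2, Irf1, Jak1, Ifngr1, Irf9, Stat2, and Jak2, so the places of Ifngr2, Jak1, Ifnar1, and Irf1 depended on the scale.

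To ask whether anti-PD1 or the resistant line went with other levels of these genes, the tumor levels were compared with limma, in which all 6 tumors share 1 variance estimate per gene and p-values are two-sided and Benjamini-Hochberg adjusted over 11264 genes. With 2 tumors a condition, an exact permutation test could not fall below p = 0.333. In B16PD1 minus B16, 0 of the 9 genes passed an adjusted p of 0.05, where 0.00% of all genes passed, and 0 of 9 had an unadjusted p under 0.05, where 4.69% of all genes did. The differences were negative for 8 of the 9 genes and for 47.0% of all genes, with a median of -0.10 against 0.01 over all genes. All genes were not matched to the 9 by level. Without B16007, 4 of the 9 were negative. Ifnar1 had the difference with the lowest unadjusted p, -0.40 (standard error 0.32, 95% interval -1.07 to 0.28, limma adjusted p = 0.989), and it ranged from -0.64 to -0.15 with each tumor left out in turn. Ifnar1 and Jak2 were lower in both B16PD1 tumors than in both B16 tumors, as were 15.4% of all genes. Irf1 was the gene with a positive difference, 0.47 (standard error 0.53, interval -0.65 to 1.59, adjusted p = 0.989), and it was 1.51 without B16007 and -0.57 without B16008. For Irf9 the difference was -0.37 (standard error 0.39, adjusted p = 0.989), turning to 0.43 without B16007. For Irf1 and Irf9 the direction thus rested on single tumors, and Irf1 also turned, to -0.20, without B16PD1002. The other differences were -0.01 for Ifngr1, -0.17 for Ifngr2, -0.37 for Ifnar2, -0.09 for Jak1, -0.10 for Jak2, and -0.07 for Stat2, and adjusted p over the 9 genes ran from 0.989 to 0.998.

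In R499 minus B16, 0 of the 9 genes passed an adjusted p of 0.05, where 0.0621% of all genes (7) passed, and 1 of 9 had an unadjusted p under 0.05, where 10.5% of all genes did. The gene was Ifnar1, with a difference of -0.68 (standard error 0.32, 95% interval -1.35 to -0.01, limma adjusted p = 0.469). Ifnar2 differed by -0.76 (standard error 0.36, interval -1.53 to 0.01, adjusted p = 0.478), Jak1 by -0.40 (standard error 0.33, adjusted p = 0.694), and Ifngr2 by -0.33 (standard error 0.33, adjusted p = 0.760). With each tumor left out in turn, the differences ranged from -0.93 to -0.43 for Ifnar1, -1.18 to -0.33 for Ifnar2, -0.66 to -0.14 for Jak1, and -0.60 to -0.05 for Ifngr2. These 4 genes were lower in both R499 tumors than in both B16 tumors, as were 30.1% of all genes. The median difference of the 9 genes was -0.38 against -0.07 over all genes, of which 64.1% were negative. All genes were not matched to the 9 by level, so the sizes of these medians cannot be compared directly. Jak2 and Stat2, with the lowest levels, had standard errors of 0.11 and 0.12, against 0.32 to 0.36 for the receptor chains. The mean number of genes detected per cell was 3332 and 3456 in the R499 tumors and 3758 and 3496 in B16, while the medians, 3141 and 3682 against 3647 and 3388.5, overlapped. With this mean as a covariate, 3 of the 9 differences were negative, and with mean TPM taken before the log2, 4 were. On that last scale Ifnar1 differed by 0.15 and Ifngr2 by 0.65, the other direction. Irf1 differed by -0.86 (standard error 0.53, interval -1.98 to 0.26, adjusted p = 0.590), and by 0.18 without B16007 and -1.90 without B16008. The remaining differences were -0.38 for Ifngr1, 0.11 for Jak2, 0.10 for Stat2, and -0.09 for Irf9, and adjusted p over the 9 genes ran from 0.469 to 0.958.

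The genes within 1 Mb on each side of the members were described for R499 minus B16, where 64.1% of all genes were negative. Around Ifnar1 and around Ifnar2, 25 tested genes had a median difference of -0.06, and 18 of them were negative. These windows overlap, and each holds the other of these chains, Ifngr2, and Il10rb. Il10rb, which lies between Ifnar2 and Ifnar1, was the most abundant gene of the 9 and the pathway list together, at 4.53. Its difference was 0.11 (standard error 0.33, limma adjusted p = 0.935). Around Stat2, 51 tested genes had a median difference of 0.12 with 38 positive, and Stat2 itself had 0.10 (standard error 0.12, adjusted p = 0.788). Around Jak1, 3 of 3 tested genes were negative with a median of -0.37, beside -0.40 for Jak1, and around Irf1, 10 of 15 were negative with a median of -0.22. Around the other members the medians ran from -0.09 (Irf9) to 0.02 (Jak2). In B16PD1 minus B16 the medians ran from -0.21 (Jak1, 3 of 3 negative) to 0.03 (Jak2). Copy number was not examined.

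**Figure D3:**
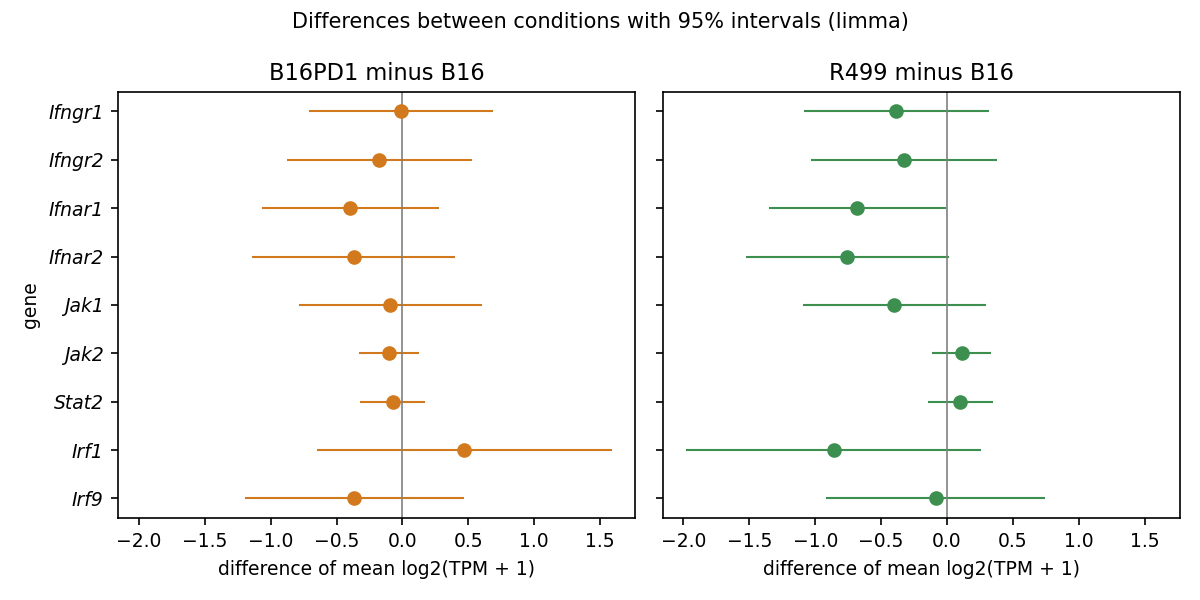
Differences of tumor means of log2(TPM + 1) for each gene in B16PD1 minus B16 (left) and R499 minus B16 (right), with 95% intervals of limma as bars. The intervals cover 0 except that of Ifnar1 in R499 minus B16, which ends at -0.01 and whose adjusted p is 0.469.

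Between cells, correlations among the members were weak. Correlations were computed on log2(TPM + 1) after each tumor's mean was subtracted and the number of genes detected was regressed out. Cells of a tumor are not independent replicates, so these are descriptions and carry no test. Over 507 cells, the 36 pairs had a Pearson r from -0.07 to 0.12 with a median of 0.02. Chains of 1 receptor were no exception, with r = 0.06 for Ifngr1 with Ifngr2 and -0.02 for Ifnar1 with Ifnar2. The highest values were those of Ifnar2 with Jak2 (0.12) and of Irf1 with Irf9 (0.10). Without regressing out the number of genes detected, 11 of 36 pairs exceeded 0.1 in place of 1, and the median was 0.09.

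Both chains of a receptor were listed together in a minority of cells. Ifngr1 and Ifngr2 were both detected in 124 cells (24.5%), from 13 of 81 in R499015 to 25 of 91 in B16007, and Ifnar1 and Ifnar2 in 140 cells (27.6%), from 14 of 75 in R499016 to 30 of 86 in B16008. Ifngr2 was detected in 72.9% of cells with Ifngr1 and in 52.8% of cells without, but the cells with Ifngr1 had a median of 4390 genes detected and the others 3170. Ifngr1, Ifngr2, Jak1, and Jak2 together, the receptor and kinases of interferon gamma, were found in 11 cells (2.17%), and no receptor chain was found in 67 (13.2%). The median cell had 3 of the 9 genes detected and the highest number was 8.

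The members were then compared with an interferon-stimulated mean, the average log2(TPM + 1) of the 50 tested genes on a list of 51, none of them a member. The most abundant were B2m and H2-D1 of MHC class I, Ifi27, the antiviral Ifitm3, and the proteasome activator Psme1. Between the cells of a tumor this mean went with Irf9 (r = 0.28), Stat2 (r = 0.23), and Irf1 (r = 0.14), in 6 of 6 tumors each (n = 507 cells). For Irf9 the B16 tumors gave an r of 0.27 and 0.09, the others 0.25 and 0.54 in B16PD1 tumors and 0.24 and 0.03 in R499 tumors. For Stat2, r was 0.23 and 0.10, 0.16 and 0.55, and 0.16 and 0.06 in the same order. For Irf1 it was 0.12 and 0.14, 0.10 and 0.27, and 0.07 and 0.01, so close to 0 in R499016. B16PD1002 was the highest for each of these genes, and without it the pooled r was 0.20 for Irf9, 0.15 for Stat2, and 0.086 for Irf1. In that tumor the 7 cells with Stat2 had an interferon-stimulated mean of 4.76 and the 81 cells without had 1.88, with medians of 4788 and 3746 genes detected, for which these means were not adjusted. In the other 5 tumors the cells with Stat2 were higher by 0.39 to 0.67. This unadjusted difference did not set Stat2 apart outside B16PD1002. Over the tumors it was 0.25 to 0.70 for Jak1, 0.30 to 0.62 for Ifnar2, and -0.04 to 0.43 for Ifngr1. Leaving out cells with immune markers gave an r of 0.28 for Irf9, 0.23 for Stat2, and 0.15 for Irf1 over 496 cells.

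For the receptor chains and kinases, r with the interferon-stimulated mean between cells was close to 0. It was -0.02 for Ifngr1, 0.00077 for Ifngr2, 0.04 for Ifnar1, 0.02 for Ifnar2, 0.04 for Jak1, and 0.02 for Jak2, with both signs among the tumors of each. Without regressing out the number of genes detected their r was 0.09 to 0.22, and that of Irf9 was 0.34. Gene by gene, Stat2 had a positive r with 36 of the 36 interferon-stimulated genes detected in at least 10% of cells, Irf9 with 34, and Irf1 with 30. For the other 6 members the number was 14 to 26 of 36. Without B16PD1002 the numbers were 32 for Stat2, 29 for Irf9, and 25 for Irf1, while that of Jak1 was 29 in place of 24, with an r of 0.089 with the interferon-stimulated mean against 0.086 for Irf1, so Irf1 and Jak1 were no longer apart. Over all 8138 or 8139 other genes at this limit, 46.8% to 56.2% had a positive r with a member. All of these correlations are weak, the highest with a single interferon-stimulated gene being 0.24.

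**Figure D4:**
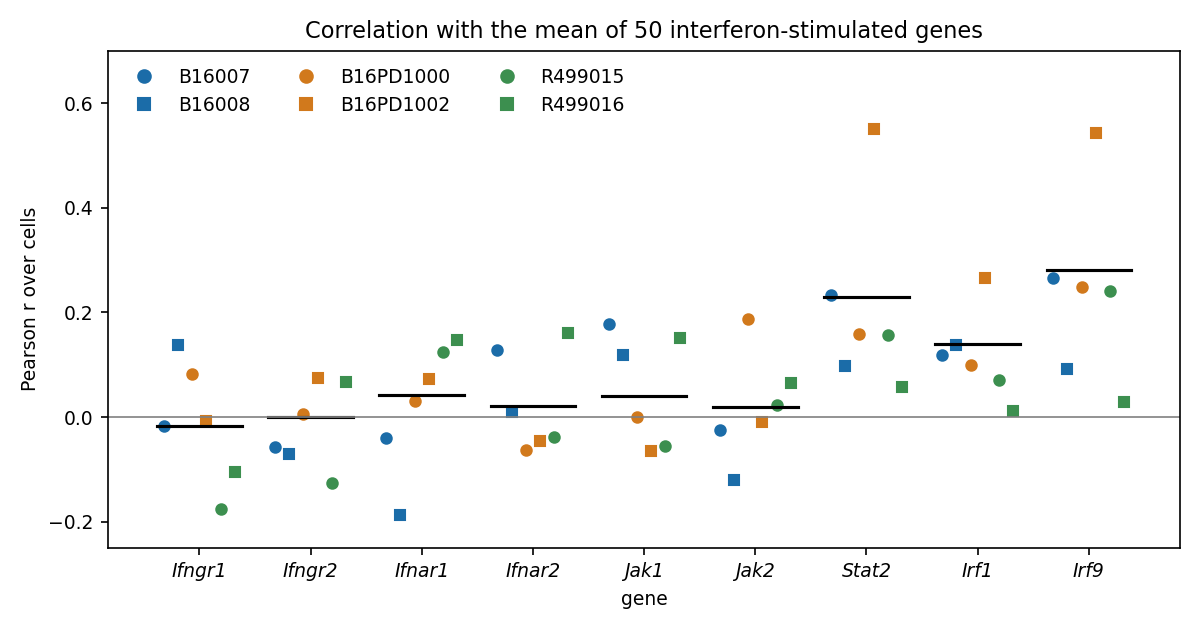
Pearson r over cells between each gene and the mean of 50 interferon-stimulated genes, after regression on the number of genes detected, in each tumor (points) and pooled over tumors (black lines, 507 cells). Stat2, Irf1, and Irf9 are above 0 in 6 of 6 tumors, while the receptor chains and kinases lie on both sides of 0.

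Across tumors, the level of Irf9 and the interferon-stimulated mean ranked the 6 tumors in the same order. The mean was 1.29 in B16008, 1.67 in B16PD1000, 1.75 in R499016, 2.11 in B16PD1002, 2.19 in R499015, and 2.55 in B16007. Irf9 in that order had levels of 0.71, 1.04, 1.20, 1.25, 1.65, and 2.31. The lowest and the highest tumor were both untreated B16, so the order did not separate conditions. The median number of genes detected was 3388.5, 3807.5, 3682, 3838.5, 3141, and 3647 in the same tumors, and its part in this order was not tested. By mean TPM or share of cells, Irf9 did not keep this order. Its mean TPM was 12.8, 10.6, 20.7, 12.8, 18.1, and 28.5 in the same tumors. Its shares were 15.1%, 22.1%, 24.0%, 23.9%, 32.1%, and 45.1%. How many of all genes rank the tumors in this order was not counted. The level of Irf1 did not keep this order. At similar interferon-stimulated means, Irf1 was 3.57 in B16PD1002 and 1.75 in R499015. Of the 50 interferon-stimulated genes, 0 passed an adjusted p of 0.05 in either contrast by limma, with 0 and 2 at an unadjusted p under 0.05, beside 4.69% and 10.5% of all genes. Their median difference was -0.0029 in B16PD1 minus B16 and 0.03 in R499 minus B16, beside 0.01 and -0.07 over all genes, not matched by level.

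**Figure D5:**
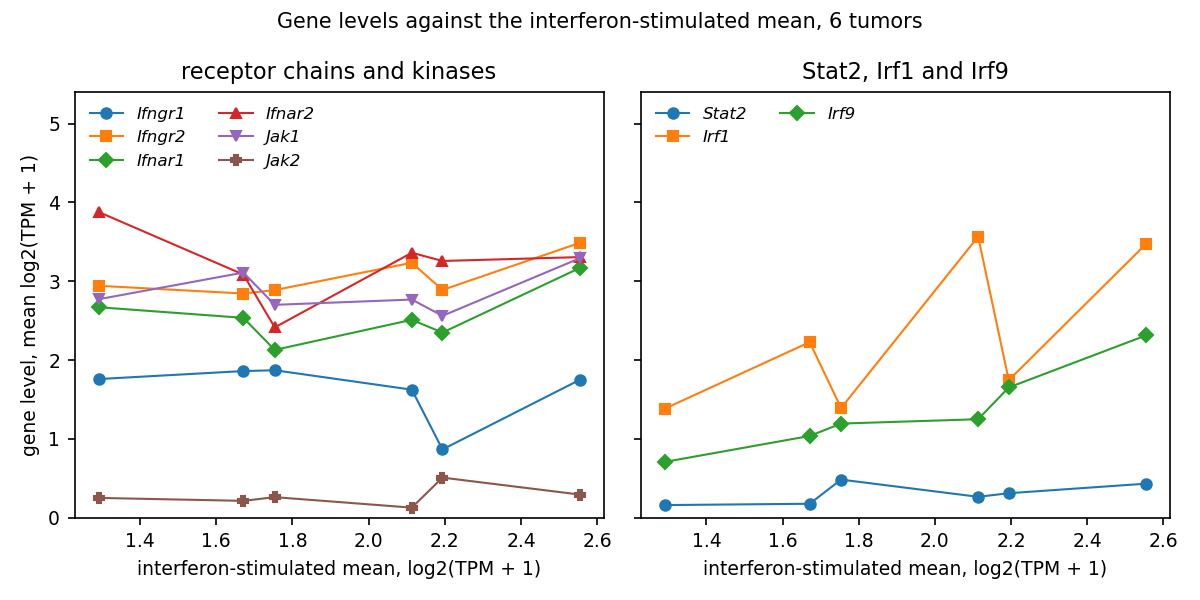
Level of each gene against the mean of 50 interferon-stimulated genes, both as mean log2(TPM + 1), in the 6 tumors, with lines joining the tumors of a gene in order of the interferon-stimulated mean. Irf9 rises at each step from 0.71 to 2.31, whereas Irf1 moves up and down and the receptor chains and kinases show no common order.

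For each member, the 3 genes most like it between cells were taken among those detected in at least 10% of retained cells, by Pearson r over the 507 cells. They are the highest of 8138 or 8139 correlations, and how high such maxima run between unrelated genes was not computed. For Stat2 they were Usp18 (0.22), Ifit3 (0.22), and Stxbp5 (0.19), and Usp18 and Ifit3 are on the interferon-stimulated list. For Irf9 they were Cmpk2 (0.24), which is on the interferon-stimulated list, Parp11 (0.22), and Fat1 (0.22), and for Irf1 Lpcat2 (0.18), Irgm2 (0.17), which is on the list, and Slc39a10 (0.17). Of the 8138 or 8139 genes compared with each member, 36 are on the interferon-stimulated list. Absence from 3 places is therefore not read as a contrast. None of the genes most like the other members was on that list. They were Rnd2, Map2k7, and Lnpk for Ifngr1 (0.16 each), Ppfia1 (0.22), Bcat1, and Slc35f6 for Ifngr2, and Elovl5 (0.19), Sidt2, and Zkscan1 for Ifnar1. For Ifnar2 they were Gmppb (0.15), Deptor, and Brpf1, for Jak1 Mettl23 (0.18), Id1, and Sp1, and for Jak2 Dnajb14 (0.22), Tmem260, and Nudt16.

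The rest of the pathway was described from a list of 36 genes, of which 25 were tested. None passed an adjusted p of 0.05 in B16PD1 minus B16 or in R499 minus B16 by limma, and 1 and 3 of the 25 had an unadjusted p under 0.05, beside 4.69% and 10.5% of all genes. All 7 ligand genes on the list, Ifng and Ifnb1 among them, were listed at 0 in all 507 retained cells, where an observed 0 allows a share of up to 0.592% of cells with the gene listed. This limit covers counting error and not cells whose transcripts were missed. Of the other receptor chains, Il10rb was detected in 70.0% of cells and Ifnlr1 in 1 cell. Among the kinases, Tyk2, the partner of Ifnar1, was detected in 6.31% of cells, close to Jak2, and Jak3 in 1.18%. Stat3, which serves mainly interleukin 6 family cytokines, was detected in 61.5% of cells with a level of 3.28, far above Stat2. The other IRFs were led by Irf3 (32.9% of cells), an activator of interferon genes, and Irf2 (28.6%), an antagonist of Irf1, and the negative regulators by the phosphatase Ptpn2 (65.5%) and the SUMO ligase Pias1 (55.6%).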

How the data were processed

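Expression of single cells from 6 tumors was analysed as deposited. Reads were aligned by the authors with STAR (2-pass mode) and TPM was estimated with RSEM, both with default settings. The deposited TPM table precedes their filter on cells, and the labels name the build mm10. Tool versions are not given in the sources used here. A limit on mapped reads could not be set on TPM, and doublets were not called. Column names gave the tumor and condition of each cell. No cells were identical.

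The test was run on 11264 genes detected in more than 5 of the retained cells. The tumor was the replicate, and the mean over its cells of log2(TPM + 1), with a pseudocount of 1, was compared with limma 3.58.1 (eBayes with a trend) in R 4.3.3. Cells were not tested as replicates. Positions came from GENCODE M21 and promoters from RefSeq. Other steps used Python 3.11.15 (scipy 1.17.1, pandas 2.3.3, numpy 2.4.6) and figures matplotlib 3.10.9. Of these steps, the limma comparison was tested on simulated tumor means.

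The genes and lists were chosen with earlier results of these data known. Genes are named by a rule: all members, the 2 most abundant pathway genes of each role and any past the threshold, the 3 genes most like each member, the 5 most abundant interferon-stimulated genes, and the 2 most abundant of each marker list. One pathway gene that the rule names is not reported here. Ptprc, the genes overlapping a member, and others in the text were named beyond the rule after their values were seen. Alternatives were other pseudocounts (0.1 and 10), mean TPM of a tumor before the log2, no filter on genes, no filter or a stricter filter on cells (more than 2000 genes, less than 5% mitochondrial TPM), subtraction of each cell's mean, limma without a trend or with the number of genes detected as a covariate, leaving out cells with 2 or more immune markers, leaving out each tumor in turn, TPM above 1 for detection, and Spearman's rho. R499 was not compared with B16PD1, since line and treatment both differ.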

Additional observations from a re-analysis of the deposited data

How the results depend on the processing

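In every one of the 16 alternatives fitted with limma, 0 of the 9 members passed an adjusted p of 0.05 in either contrast, and the lowest adjusted p among members was 0.776 in B16PD1 minus B16 and 0.300 in R499 minus B16. The order of levels by the log2 of mean TPM, in which Ifngr2, Jak1, Ifnar1, and Irf1 changed places, also had 0 of 8 neighbors past 0.05. Of 288 recomputed differences of members, 261 kept their direction and 27, of 15 differences, turned it. Differences without a filter on genes, without a trend, or without a tumor outside the contrast could not change. The 261 are therefore not read as a measure of stability. In B16PD1 minus B16, Ifngr1 turned to 0.061 with a pseudocount of 0.1 and to 0.080 with the stricter filter on cells. With the number of genes detected as a covariate, Ifnar2 turned to 0.061 and Irf1 to -0.25 in that contrast, and Ifngr2 turned to 0.017, Jak1 to 0.055, Irf1 to 0.35, and Irf9 to 0.87 in R499 minus B16. With the log2 of mean TPM, Ifngr2 turned to 0.65, Ifnar1 to 0.15, and Irf9 to 0.013 in R499 minus B16, and Irf9 to 0.016 with each cell's mean subtracted. With each tumor left out in turn, B16PD1 minus B16 ranged from -0.13 to 0.11 for Ifngr1, -0.45 to 0.10 for Ifngr2, -0.35 to 0.17 for Jak1, -0.21 to 0.061 for Stat2, -0.57 to 1.51 for Irf1, and -1.17 to 0.43 for Irf9. R499 minus B16 ranged from -0.89 to 0.12 for Ifngr1, -0.012 to 0.24 for Jak2, -0.035 to 0.24 for Stat2, -1.90 to 0.18 for Irf1, and -0.89 to 0.71 for Irf9. Where 1 B16, B16PD1, or R499 tumor was left, it was assumed to vary like the other conditions. The cause of these turns was not tested. The count of all genes past 0.05 in R499 minus B16, 7, was 11 with a pseudocount of 0.1, 3 with 10, 22 without a filter on cells, 21 with the stricter one, 28 with each cell's mean subtracted, and 0 with the log2 of mean TPM, without a filter on genes, with the covariate, and without a trend. With a tumor left out it was 0 to 10, and in B16PD1 minus B16 it was 0 to 2. Of 81 recomputed shares of cells 17 moved by more than the SD of 2 tumors, none of them with TPM above 1. This SD ran from 0.037 percentage points (Ifnar1 in B16PD1) to 24.0 (Irf1 in B16). The count of 17 is therefore not read as a measure of stability. Of 81 recomputed correlations with the interferon-stimulated mean 3 moved by more than the gene's SD of r over tumors. They were those of Ifngr2, Ifnar2, and Jak1 without regressing out the number of genes detected. This SD ran from 0.080 (Ifngr2) to 0.178 (Irf9), so sizable changes were not counted. Ifngr1 turned from -0.018 to 0.093 without that regression, and Irf9 fell from 0.28 to 0.20 without B16PD1002. Leaving out immune-marker cells and each tumor for correlations were chosen after seeing the data. No paired analysis was possible because the columns carry tumor numbers and not the replicate numbers of the labels, and the mice of different conditions are different animals. Depth in reads is unknown, so what it limits could not be computed.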

Other observations

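Some genes of the pathway list varied between tumors in ways that the comparisons above do not hold, and they were chosen after their values were seen. Irf4, a transcription factor of lymphocytes and pigment cells, was detected in 11 of 75 cells of R499016 and in 0 to 1 cells of each other tumor, R499015 included. Irf7, an interferon-stimulated activator of type I interferon genes, was detected in 16 of 91 cells of B16007 and in 1 of 86 cells of B16008. It was detected in 4 of 86 and 7 of 88 cells in B16PD1 and in 16 of 81 and 9 of 75 in R499. Socs1, an inhibitor of JAK kinases, was detected in 5 of the 507 cells, and the inhibitor of Stat3, Pias3, had the lowest adjusted p of the list, with levels of 1.22 and 1.45 in B16, 1.14 and 0.74 in B16PD1, with 0.45 and 0.56 in R499. Its difference in R499 minus B16 was -0.83 (standard error 0.22, limma adjusted p = 0.221).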
